A study of Mus musculus with 6 samples.

Results

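The heat shock chaperones of the cytosol are proteins that bind unfolded or partly folded polypeptides and help them to fold or to be degraded. The set described here holds 10 genes, picked by symbol from the 24421 genes of the count table: the transcription factor gene Hsf1, the HSP70 genes Hspa1a, Hspa1b and Hspa8, the HSP90 genes Hsp90aa1 and Hsp90ab1, the HSP110 gene Hsph1, the HSP40 genes Dnaja1 and Dnajb1, and the small heat shock gene Hspb1. All 10 symbols were found. They were measured by RNA sequencing in Neuro2a, a mouse neuroblastoma line labelled wild type, grown on collagen-coated plates and harvested 48 h after adenovirus was added. The virus carried a control short hairpin RNA (shCtrl, 3 libraries) or a hairpin against Fam172a (shFam172a, 3 libraries), and the design text places the comparison in work on diet-induced obesity. Both groups received virus, no library without virus is analysed here, and the hairpin sequence is not given in the sources used here. Nothing in the labels says whether the libraries of a group came from separate cultures, so the p-values measure only the spread between these libraries, which may be technical.

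In unstressed cells HSF1 is held inactive, in part by HSP70 and HSP90 themselves. When unfolded proteins draw these chaperones away, HSF1 forms trimers, binds inverted repeats of GAA called heat shock elements, and turns on the inducible chaperones. Hspa8 and Hsp90ab1 are the constitutive cytosolic HSP70 and HSP90, Hsp90aa1 is the more inducible HSP90, and Hspa1a and Hspa1b are the HSP70 genes that are classically induced by heat. Neurons are known for weak induction of the inducible HSP70.

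Fam172a fell from 18.6, 19.3 and 19.5 CPM in shCtrl (counts scaled to library size by TMM) to 9.22, 8.27 and 9.21 CPM in shFam172a, or -1.10 ± 0.092 (SE) on the log2 scale, with adjusted p = 2.4e-12 in edgeR's test. Gene counts summed to between 11250312 and 12820531 in shCtrl and to between 21690467 and 23409319 in shFam172a, so depth goes with the group. Of 13 markers of the neuroblastoma line, 12 passed the filter on low counts, with a summed level of 2236 to 2254 CPM in shCtrl and 2322 to 2363 CPM in shFam172a. Of these 12, 6 were called higher and 1 lower, where 17.5% of all genes tested were called higher and 18.6% lower. The part of these markers in the results below was not tested. Markers of other cell types were low: in shCtrl and shFam172a the 7 fibroblast markers summed to at most 6.85 and 6.21 CPM, the 7 macrophage markers to at most 0.797 and 1.34 CPM with Ptprc and Itgam at 0 and Cd68 called higher, the 7 glial markers to at most 29.0 and 33.4 CPM with Aqp4 and Olig2 at 0, and the 7 endothelial and epithelial markers to at most 14.9 and 16.6 CPM. Replicate 3 of shFam172a stood apart from its own group in alignment, with 4.46% of read pairs of too low alignment quality against 6.65% and 7.12% in replicates 1 and 2. The shCtrl libraries were at 4.83% to 5.83%. The called members are also given without replicate 3 of shFam172a.

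The set as a whole stayed close to its control level. Of the 10 members, 7 passed the filter on low counts, and among these 1 rose (Hspa8), 1 fell (Hsp90ab1) and 5 did not pass the test (edgeR's quasi-likelihood test, Benjamini-Hochberg adjusted p under 0.05 over 12820 genes). The share called was 28.6%, where 36.1% of all genes tested were called. Among the 4972 genes with a mean of at least 50 CPM, a level that all 7 members reached, it was 53.3%. The median log2 fold change of the 7 members was 0.02 and that of all genes was -0.00030. The median size of the change, whatever its direction, was 0.06 in the members, 0.13 over all genes and 0.10 over those with a mean of at least 50 CPM. Hspa1a, Hspa1b and Hspb1 were under the filter. In these bulk libraries, fewer cells that express a gene and less RNA per cell cannot be told apart.

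**Figure D1:**
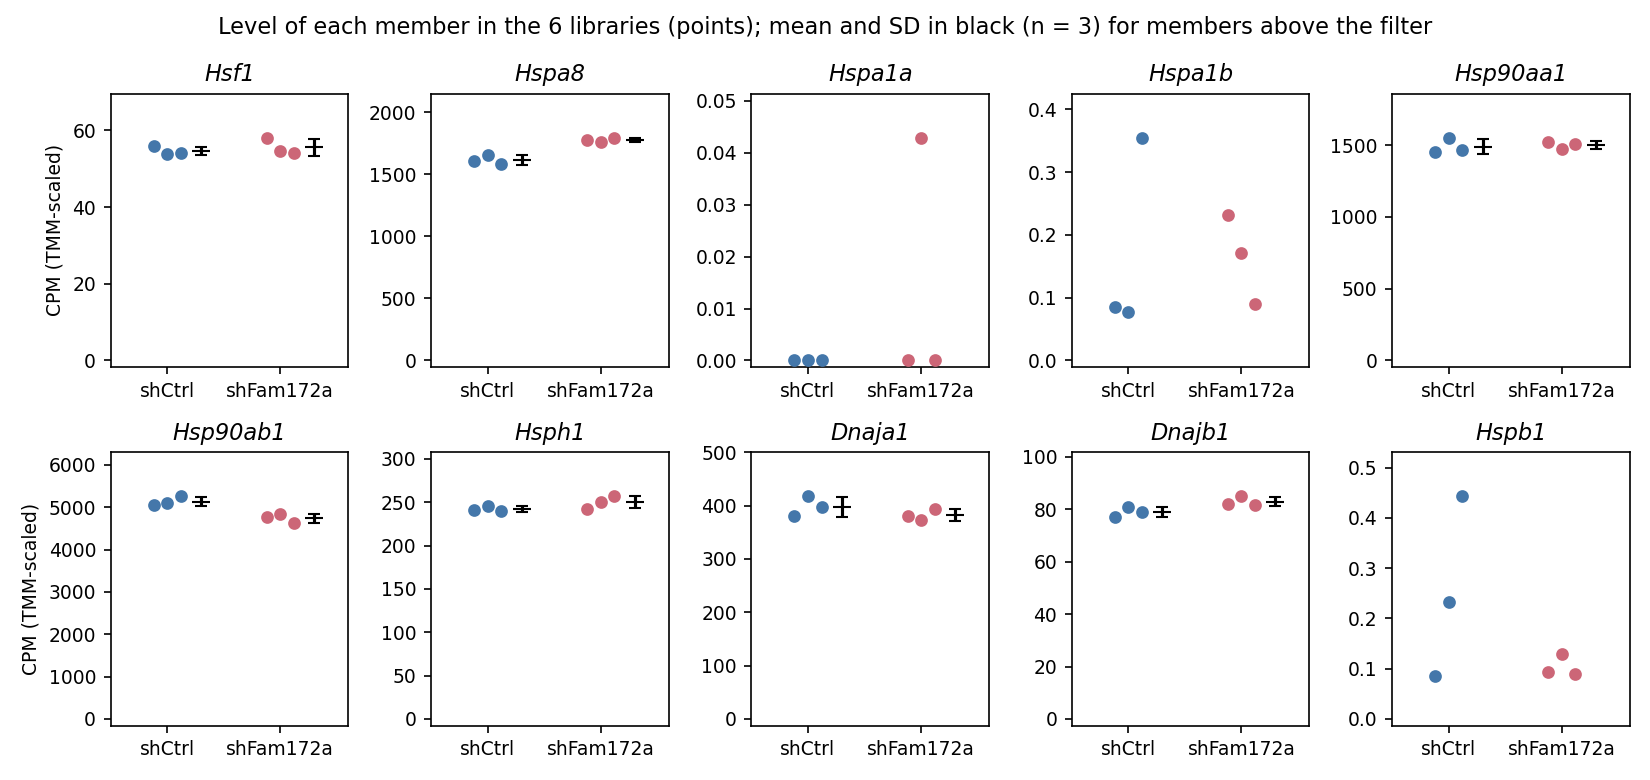
Level of the 10 members in CPM (vertical axes, each from 0 and on its own scale) in the 3 shCtrl and 3 shFam172a libraries (points), with mean and SD in black for the 7 members above the filter on low counts. Hspa8 is higher and Hsp90ab1 lower in all 3 shFam172a libraries, while Hspa1a, Hspa1b and Hspb1 stay at or below 0.44 CPM in every library.

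Hsf1, the master regulator of the response, was expressed at a steady moderate level. The gene (ENSMUSG00000022556.11) lies on chromosome 15 at 76477422 to 76501913 of GRCm38, the build also called mm10, on the plus strand, and shares no exon sequence with another annotated gene. It stood at 55.95, 53.9 and 54.2 CPM in shCtrl and at 58.0, 54.6 and 54.1 CPM in shFam172a. The groups overlapped, and only replicate 1 of shFam172a lay above all control libraries. The log2 fold change was 0.02 ± 0.049 (SE, adjusted p = 0.74), with a 95% interval from -5.05% to 8.86%. Its sign was not stable: it was -0.0061 without shFam172a replicate 1, -0.0010 after thinning all libraries to the smallest, and -0.05 (adjusted p = 0.40) with offsets for length and GC.

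The inducible HSP70 genes were almost silent in both groups. Hspa1a (ENSMUSG00000091971.3, chromosome 17, 34969190 to 34972156, minus strand) and Hspa1b (ENSMUSG00000090877.3, chromosome 17, 34956436 to 34959238, minus strand) are single-exon neighbours. Hspa1a had 0 counts in all 3 shCtrl libraries, and 0, 1 and 0 counts in the shFam172a libraries. A count of 0 allows up to 0.0840 CPM when taken as 3 counts over the summed gene counts of shCtrl, and the exact Poisson 95% interval reaches 0.103 CPM (counting error only). Hspa1b had 1, 1 and 4 counts in shCtrl and 5, 4 and 2 counts in shFam172a. Summed over a group, Hspa1b was at 0.168 CPM in shCtrl (exact Poisson 95% interval 0.0617 to 0.366, counting error only) and at 0.163 CPM in shFam172a (0.0815 to 0.292). These intervals overlap almost fully, so no difference was detectable at this depth. The counts of both genes summed, 6 and 12, also stayed under the filter, with adjusted p = 0.96 when the filter was lifted.

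The low HSP70 counts have to be read with the sequence of the pair in view. Of the 2868 stretches of 100 bases in the Hspa1a transcript, 56.5% occur exactly in transcripts of other genes, and 47.1% occur in Hspa1b. For Hspa1b the shares were 49.9% in all other genes and 49.9% in Hspa1a. A read that lies wholly in a shared stretch matches both genes equally well. Read pairs with several alignments made up 9.58% to 9.71% of a library in shCtrl and 9.99% to 10.4% in shFam172a, and their part in these counts was not tested. The counts of both genes are therefore uncertain. Hspa1a also shares 564 exonic bases with Gm20481 on the opposite strand, and the strand setting of the counting is not given in the sources used here.

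Hspb1, which encodes the small heat shock protein HSP25, was also near 0. It lies on chromosome 5 at 135887919 to 135889563 (ENSMUSG00000004951.10, plus strand). Its counts were 1, 3 and 5 in shCtrl and 2, 3 and 2 in shFam172a. Summed over a group this was 0.252 CPM (exact Poisson 95% interval 0.115 to 0.479) against 0.104 CPM (0.0418 to 0.214). The intervals overlap, and with the filter lifted the adjusted p was 0.37. Of its 100-base stretches, 56.3% occur in the annotated pseudogene Hsp25-ps1, so Hspb1 has the same limit as the HSP70 pair. Other small heat shock genes varied in level. Hspb8, the most abundant of those listed, stood at 150.6 ± 3.31 CPM (SD, n = 3) in shCtrl and 156.9 ± 3.06 CPM in shFam172a. Cryaa had 0 counts in every library, and Hspb3 and Hspb7 were also under the filter.

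The promoters of these near-silent genes carry pairs of inverted GAA repeats, a part of the heat shock element. For this reason they are shown here beside Dnaja1 and Hsph1, members that were expressed. RefSeq promoter windows on GRCm38.p6 (250 bases before to 50 after the annotated start) were matched for 6 of the 10 members. They were searched on both strands for the pairs GAANNTTC and TTCNNGAA, and for the triple in which the first pair runs into the second and shares its TTC with it. Capitals mark matches, and each stretch is printed 5′ to 3′ on the gene's strand.
Hspa1a (chr17:34972223-34972290, minus strand): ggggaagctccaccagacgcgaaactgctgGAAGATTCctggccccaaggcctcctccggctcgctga
Hspa1b (chr17:34959305-34959372, minus strand): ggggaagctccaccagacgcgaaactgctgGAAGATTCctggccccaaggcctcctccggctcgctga
Hspb1 (chr5:135887772-135887859, plus strand): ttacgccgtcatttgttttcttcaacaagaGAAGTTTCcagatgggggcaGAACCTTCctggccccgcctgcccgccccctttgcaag
Dnaja1 (chr4:40722314-40722381, plus strand): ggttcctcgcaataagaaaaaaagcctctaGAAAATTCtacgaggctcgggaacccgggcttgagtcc
Hsph1 (chr5:149636337-149636399, minus strand): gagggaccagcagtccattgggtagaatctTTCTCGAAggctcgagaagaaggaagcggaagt
Hsph1, site after the start (chr5:149636287-149636316, minus strand): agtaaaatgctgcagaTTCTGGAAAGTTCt

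The printed Hspa1a and Hspa1b stretches are identical, and the full windows of the pair differ at 4 of 300 bases. GAANNTTC was found in 7.86% of all 32851 RefSeq windows of this length, TTCNNGAA in 8.52% and the triple in 0.603%. Of the members matched, Hsph1 alone had the triple, 36 bases after the more upstream of its annotated starts. The Hspa1a, Hspa1b, Hspb1 and Dnaja1 windows had GAANNTTC pairs, and the Dnajb1 windows had none of the 3 patterns. These are matches of letters, and binding was not measured. Members with a match were found at levels near 0 (Hspa1a, Hspa1b, Hspb1) and at levels of 239.9 CPM or more (Dnaja1, Hsph1).

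Hspa8, which encodes the constitutive chaperone HSC70, was the member that rose. It lies on chromosome 9 at 40800984 to 40810087 (ENSMUSG00000015656.17, plus strand), with small nucleolar RNA genes of the Snord14 family inside its annotated sequence. Its level was 1607, 1656 and 1583 CPM in shCtrl and 1774, 1758 and 1793 CPM in shFam172a. Every shFam172a library was above every shCtrl library, and the gap exceeded the spread within either group. The groups did not overlap in 3 of the 7 tested members, or 42.9%, where 46.0% of all genes tested did not overlap. Hspa8 and Dnajb1 lay above, as did 22.4% of all genes, and Hsp90ab1 lay below, as did 23.5%. The log2 fold change was 0.14 ± 0.025 (SE, adjusted p = 3.4e-05), a level 9.87% higher with a 95% interval of 6.10% to 13.8%. Without shFam172a replicate 3 it was 0.13 (adjusted p = 1.3e-04). Of its 100-base stretches, 63.4% occur in other annotated genes, mostly Gm15459 and Gm26825, and the part of this in the Hspa8 count was not tested.

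Hsp90ab1, the constitutive HSP90 beta, was the member that fell and also the most abundant. It lies on chromosome 17 at 45567775 to 45573271 (ENSMUSG00000023944.14, minus strand), and none of its 100-base stretches occurs in another annotated transcript. It stood at 5054, 5092 and 5252 CPM in shCtrl and at 4759, 4837 and 4626 CPM in shFam172a. All 3 shFam172a libraries were below all 3 shCtrl libraries. The log2 fold change was -0.11 ± 0.024 (SE, adjusted p = 2.3e-04), a change of -7.63% with a 95% interval of -10.7% to -4.45%. Without shFam172a replicate 3 it was -0.10 (adjusted p = 0.0026).

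Hsp90aa1, the more inducible HSP90 alpha, did not pass the test. The gene lies on chromosome 12 at 110690605 to 110702728 (ENSMUSG00000021270.13, minus strand). Its level was 1452, 1550 and 1464 CPM in shCtrl and 1521, 1472 and 1511 CPM in shFam172a, so the 3 shFam172a libraries lay inside the range of the controls. The log2 fold change was 0.01 ± 0.026 (SE, adjusted p = 0.75), with a 95% interval from -2.82% to 4.66%. Without shCtrl replicate 1 it was -0.0040. Of its 100-base stretches, 47.6% occur in other annotated genes, mostly Gm12346.

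Hsph1, Dnaja1 and Dnajb1 work with HSP70: HSPH1 is a nucleotide exchange factor, and the J-domain proteins DNAJA1 and DNAJB1 bring substrates and stimulate its ATPase. Hsph1 (ENSMUSG00000029657.15, chromosome 5, 149614287 to 149636376, minus strand) was at 240.9, 246.0 and 239.9 CPM in shCtrl and at 242.7, 249.7 and 256.6 CPM in shFam172a. The groups overlapped, and the log2 fold change was 0.04 ± 0.030 (SE, adjusted p = 0.28). Its 95% interval runs from -1.28% to 7.54%.

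Dnajb1 (ENSMUSG00000005483.10, chromosome 8, 83608193 to 83612653, plus strand) was at 77.0, 80.96 and 78.8 CPM in shCtrl and at 81.97, 84.9 and 81.7 CPM in shFam172a. All 3 shFam172a libraries were above all 3 shCtrl libraries, but by less than 1 CPM at the nearest pair. Its log2 fold change was 0.07 ± 0.042 (SE) and did not pass the test (adjusted p = 0.20), with a 95% interval from -1.02% to 11.3%. Dnajb1 is a sensitive HSF1 target in many cell types.

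Dnaja1 (ENSMUSG00000028410.13, chromosome 4, 40722150 to 40737149, plus strand) was at 379.7, 417.1 and 397.8 CPM in shCtrl and at 381.0, 372.5 and 394.4 CPM in shFam172a. The groups overlapped, since shCtrl replicate 1 sat among the shFam172a libraries. The log2 fold change was -0.06 ± 0.031 (SE, adjusted p = 0.15), with a 95% interval from -8.05% to 0.353%. Without shCtrl replicate 1 it was -0.09 with adjusted p = 0.026, and without shFam172a replicate 3 it was -0.08 with adjusted p = 0.050, just under the threshold before rounding, so single libraries decide this call. Dnaja1 shares exon sequence with Smu1 on the opposite strand.

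**Figure D2:**
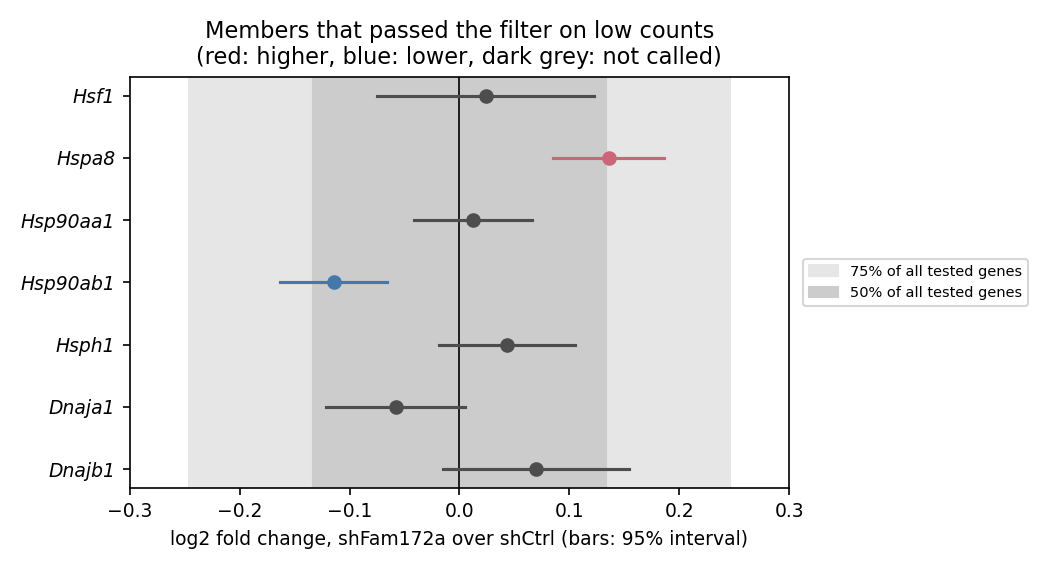
Log2 fold change of shFam172a over shCtrl (horizontal axis) for the 7 members above the filter, with 95% intervals as bars. Bands show the size of change that 50% and 75% of all tested genes stay within. The interval of Hspa8 lies above 0 and that of Hsp90ab1 below 0, and the intervals of the other 5 members include 0.

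**Figure D3:**
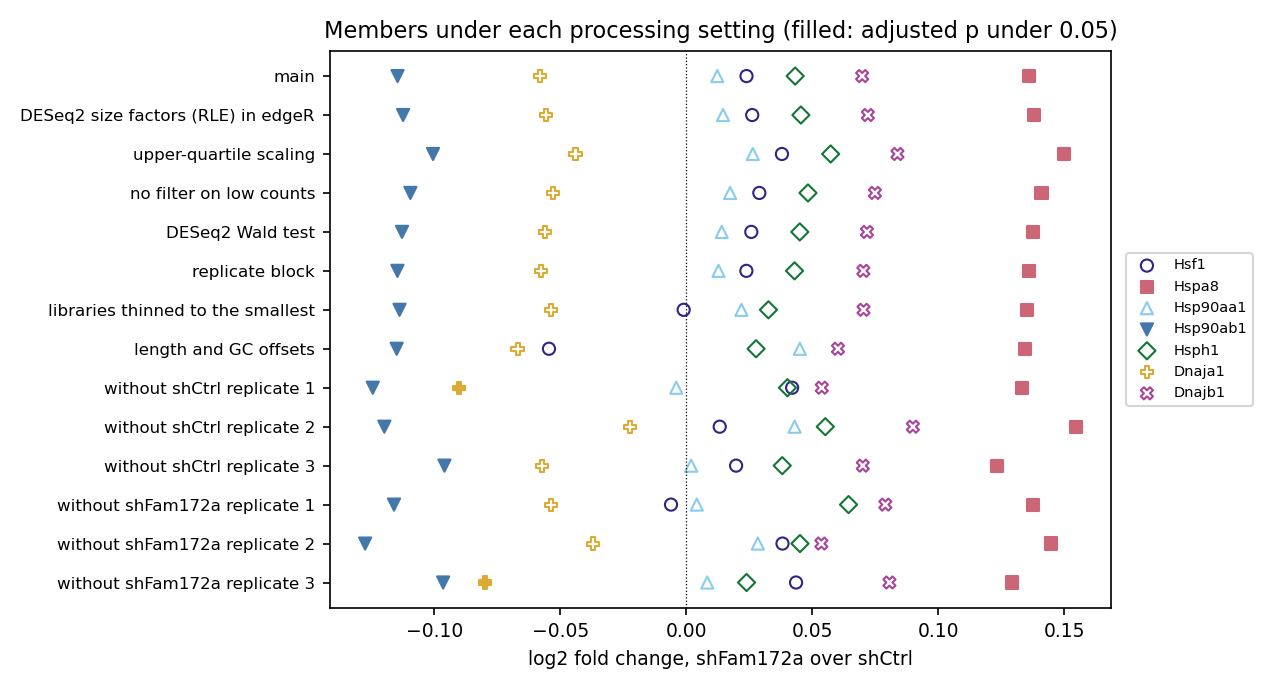
Log2 fold change of the 7 members above the filter (horizontal axis, 1 symbol a gene) under the main setting and 13 others (rows), with filled symbols where the adjusted p was under 0.05. Hspa8 and Hsp90ab1 are filled in every row, and Dnaja1 is filled without shCtrl replicate 1 and without shFam172a replicate 3.

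Per length, Hsp90ab1, Hspa8 and Hsp90aa1 led in this order in both groups. Levels were divided by the length of the principal annotated transcript, the longest where several ranked equally, and the values depend on this choice. Hspa8, Hsp90aa1 and Dnaja1 share stretches with other genes, and the part of this in their values was not tested. In shCtrl, Hsp90ab1 came first at 2037 ± 41.8 CPM per kilobase (SD, n = 3), followed by Hspa8 at 675 ± 15.4 and Hsp90aa1 at 454 ± 16.3 CPM per kilobase. Dnaja1 at 70.8 ± 3.33 and Hsph1 at 63.7 ± 0.859 CPM per kilobase came next. Dnajb1 at 26.3 ± 0.657 and Hsf1 at 26.2 ± 0.538 CPM per kilobase did not differ beyond their spread. In shFam172a, Hsp90ab1 was at 1881 ± 42.5, Hspa8 at 741 ± 7.21 and Hsp90aa1 at 458 ± 7.92 CPM per kilobase, and Dnaja1 and Hsph1, at 68.1 ± 1.96 and 65.7 ± 1.82 CPM per kilobase, had overlapping libraries. Dnajb1 was at 27.7 ± 0.592 and Hsf1 at 26.7 ± 1.02 CPM per kilobase, again within their spread.

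Ratios between members of the same library do not depend on how libraries are scaled. The 4 ratios below were chosen after the counts were seen. Hspa8 counts were 0.318, 0.325 and 0.301 of the Hsp90ab1 counts in shCtrl and 0.373, 0.363 and 0.388 in shFam172a, a mean ratio 1.19-fold higher, with no overlap. This separation restates the changes of the 2 called members and is no further result. Hspa8 was higher and Hsp90ab1 lower in all 3 shFam172a libraries, which fixes both the separation and the permutation p of this ratio. Hsph1 counts were 0.15 ± 0.00149 (SD, n = 3) of the Hspa8 counts in shCtrl and 0.141 ± 0.00339 in shFam172a, also with no overlap. Dnajb1 counts were 0.198 ± 0.00440 of the Dnaja1 counts in shCtrl and 0.217 ± 0.0105 in shFam172a, without overlap. The Hsp90aa1 to Hsp90ab1 ratio was 0.287, 0.304 and 0.279 in shCtrl and 0.320, 0.304 and 0.327 in shFam172a, where shCtrl replicate 2 and shFam172a replicate 2 were level. The exact two-sided permutation test gave p = 0.10 for the first 3 ratios, the smallest p that 3 against 3 allows, and p = 0.20 for the last (Benjamini-Hochberg adjusted p = 0.133, 0.133, 0.133 and 0.20 over the 4). None could therefore pass 0.05 in this design. Summed over the 6 chaperone members above the filter, the level was 8811 to 9042 CPM in shCtrl and 8662 to 8775 CPM in shFam172a, without overlap. Most of this sum is Hsp90ab1.

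**Figure D4:**
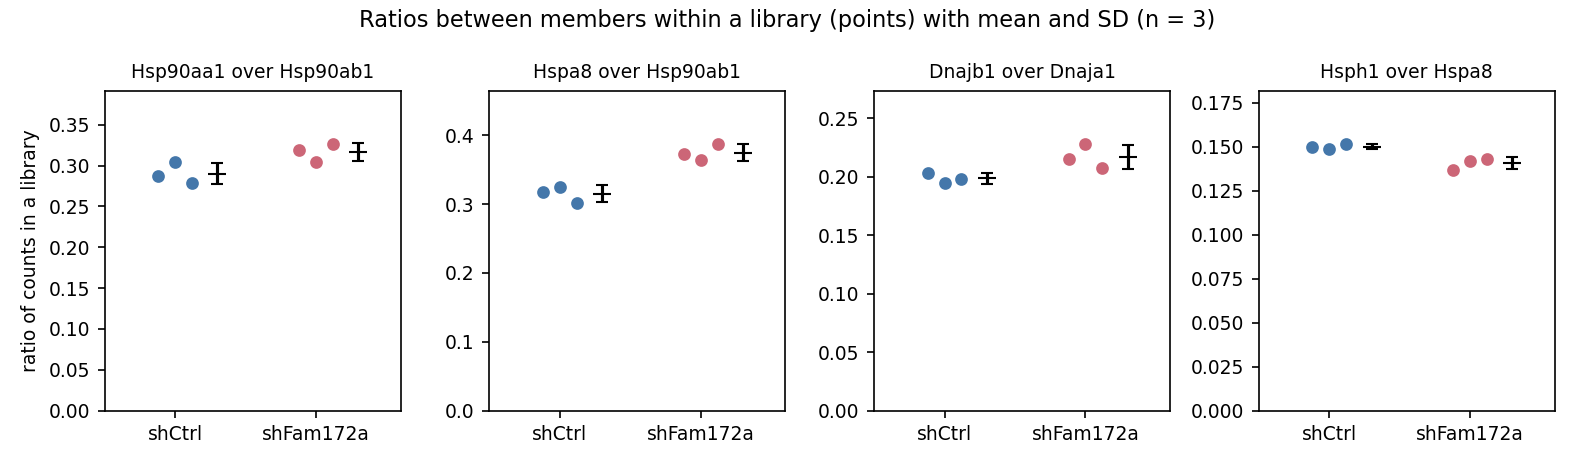
Ratios of the counts of pairs of members within each library (vertical axes, from 0), as points for the 3 shCtrl and 3 shFam172a libraries with mean and SD in black. The ratio of Hspa8 to Hsp90ab1 is 0.301 to 0.325 in shCtrl and 0.363 to 0.388 in shFam172a.

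The genes most alike to the called members in pattern over the 6 libraries were found among 7906 others with a mean of at least 20 CPM, by the root mean square distance between log2 CPM values centred on each gene's mean. For Hspa8 they were Wdr1 at a distance of 0.0095, Vps8 at 0.011 and Pycr1 at 0.012, where the median gene was at 0.101. For Hsp90ab1 they were Nup62 at 0.0093, Cox8a at 0.012 and Ttc19 at 0.012, with a median distance of 0.090. None of these 6 is a chaperone gene. They were picked by likeness over the same 6 libraries, so a group difference in the same direction follows from the choice. Wdr1, which encodes an actin-disassembling protein, was at 198 ± 4.17 CPM (SD, n = 3) in shCtrl and 218 ± 1.95 CPM in shFam172a. Nup62, a nuclear pore gene, was at 117 ± 1.57 and 107.6 ± 3.09 CPM (adjusted p = 0.011; 0.057 without shCtrl replicate 3 and 0.054 without shFam172a replicate 3).

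Beyond the members, a list of 72 genes of the chaperone network was counted, of which 68 passed the filter. Of these 68, 5 rose (7.35%), 24 fell (35.3%) and 39 did not pass the test, where 17.5% of all genes tested rose and 18.6% fell. Among genes with a mean of at least 50 CPM the shares were 25.1% higher and 28.2% lower. The median log2 fold change was -0.08, against -0.00030 over all genes. With upper-quartile scaling 8 rose and 20 fell.

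**Figure D5:**
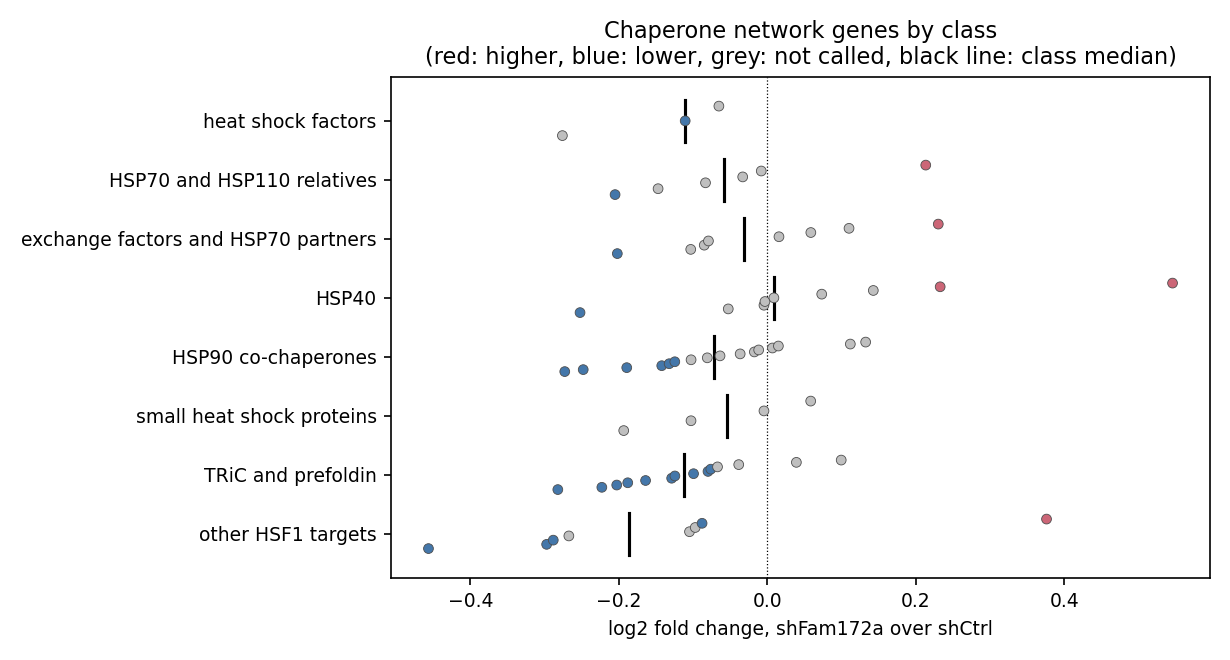
Log2 fold change of shFam172a over shCtrl (horizontal axis) for the 68 chaperone network genes above the filter, 1 point a gene, in 8 classes (rows), with the class median as a black line. All called genes of the TRiC and prefoldin class and of the HSP90 co-chaperone class lie below 0, and Dnajc5 is the point farthest above 0.

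The chaperonin TRiC, a ring that folds actin, tubulin and other cytosolic proteins, and its partner prefoldin fell most often. Of 14 subunit genes 10 fell (71.4%, against 18.6% of all genes and 28.2% of those of at least 50 CPM) and none rose, and the other 4 were not called. Their median was -0.11 on the log2 scale. Cct8 was at 819, 854 and 843 CPM in shCtrl and at 717, 718 and 721 CPM in shFam172a, or -0.22 ± 0.026 (SE, log2 scale; adjusted p = 8.9e-09). Cct2 was at 1247 ± 31.1 CPM (SD, n = 3) and 1095 ± 8.51 CPM, and Cct4 at 641 ± 12.4 and 572 ± 1.97 CPM. The shFam172a libraries of these 3 genes were all below the shCtrl libraries. Those not called were Cct3 (0.04), Cct5 (-0.04), Pfdn5 (-0.07) and Pfdn6 (0.10), named after their values were seen, and Pfdn6 had adjusted p = 0.044 without shFam172a replicate 2. Cct8 shares exon sequence with Usp16 on the opposite strand.

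Among HSP90 co-chaperones, which load clients onto HSP90 and time its ATPase cycle, 6 of 16 fell (37.5%) and none rose, with a median of -0.07 on the log2 scale. Over all genes tested 18.6% fell, and among those of at least 50 CPM 28.2% fell. Ptges3, which encodes p23, a protein that holds HSP90 in its closed state, was at 661, 668 and 645 CPM in shCtrl and at 548, 533 and 553 CPM in shFam172a (log2 fold change -0.27 ± 0.027, adjusted p = 2.0e-10). The immunophilin genes Fkbp5 and Ppid were at -0.25 ± 0.039 (adjusted p = 3.0e-06) and -0.19 ± 0.038 (adjusted p = 1.2e-04) on the log2 scale. Ahsa1, the activator of the HSP90 ATPase, was at -0.12 ± 0.033 (adjusted p = 0.0032), and without shCtrl replicate 2 at -0.09 with adjusted p = 0.060. Stip1, the adaptor between HSP70 and HSP90, was at 392 ± 4.62 and 387 ± 8.92 CPM (adjusted p = 0.67). Chordc1 was at 93.3 ± 3.46 and 91.1 ± 3.35 CPM (adjusted p = 0.53).

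Most partners and relatives of HSP70 were not called, and the shares called in each class stood near or below those over all genes, 17.5% higher and 18.6% lower, except for HSP40 genes called higher. Of 9 further HSP40 genes, 2 rose (22.2%) and 1 fell (11.1%), and 6 were not called. Dnajc5, the cysteine string protein of synaptic vesicles, was at 124, 126 and 125 CPM in shCtrl and at 190, 174 and 183 CPM in shFam172a, a level 1.46-fold higher (log2 fold change 0.55 ± 0.036, adjusted p = 2.9e-15) and the largest rise in the network list. Dnajb2 was at 0.23 ± 0.061 (adjusted p = 0.0027; adjusted p = 0.064 without shCtrl replicate 3), and Dnajc2, a ribosome-associated J protein, was at -0.25 ± 0.034 (adjusted p = 1.3e-07). Of 8 exchange factors and other HSP70 partners, with 12.5% called in each direction, Bag2 rose (0.23 ± 0.057, adjusted p = 0.0014), Bag1 fell (-0.20 ± 0.040, adjusted p = 1.0e-04) and 6 did not pass, among them St13 (0.06) and the stress-inducible Bag3, at 118 ± 1.77 and 119.5 ± 3.14 CPM (adjusted p = 0.77). Of 6 HSP70 and HSP110 relatives, with 16.7% called in each direction, Hspa4l rose (0.21 ± 0.032, adjusted p = 1.5e-06), Hspa12a fell (-0.20 ± 0.044, adjusted p = 3.4e-04) and 4 did not pass, among them Hspa4 (-0.03) and Hspa14 (-0.08). Hspa14 had adjusted p = 0.046 without shCtrl replicate 1 and 0.039 without shFam172a replicate 3, and St13 had 0.036 with upper-quartile scaling. Bag2 and Hspa12a share exon sequence with genes on the opposite strand.

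The remaining classes held factors, small heat shock genes and other textbook targets of HSF1. Over all genes tested 17.5% rose and 18.6% fell, and among those of at least 50 CPM 25.1% rose and 28.2% fell. Of 3 genes in the class of heat shock factors, which also holds an HSF-binding gene, 1 fell (33.3%). This was Hsf2, which fell slightly, from 89.8 ± 1.07 to 83.1 ± 3.68 CPM (log2 fold change -0.11 ± 0.042, adjusted p = 0.036). The call was lost under 7 of 13 other settings (adjusted p from 0.018 to 0.22). Hsf4 (-0.28) and the HSF-binding gene Hsbp1 (-0.07) were not called, and Hsbp1 had adjusted p = 0.033 without shCtrl replicate 1. Of 4 small heat shock genes tested, 0 were called at adjusted p under 0.05: Hspb8 was at 0.06, Cryab at -0.19 and Hspb2 at -0.10 on the log2 scale, and Hspb6 was the other. Of 8 other HSF1 targets, 1 rose (12.5%) and 4 fell (50%), and 3 were not called. Hmox1, the heme oxygenase that also answers to NRF2, rose from 91.3 ± 4.30 to 118 ± 3.61 CPM (0.38 ± 0.040, adjusted p = 1.3e-09). Hspe1, the mitochondrial HSP10, fell from 221 ± 9.74 to 180.3 ± 8.41 CPM (-0.30 ± 0.035, adjusted p = 1.0e-08). Hspd1 (-0.09) and Ier5 (-0.29), named after their values were seen, also fell, and Hspd1 had adjusted p = 0.066 without shCtrl replicate 2. Hspe1 and Hspd1 share 112 exonic bases on opposite strands.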

How the data were processed

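The authors deposited raw read counts per gene symbol. The submitters' processing notes name HISAT2 2.0.5, HTSeq and mm10. The sources used here do not give the annotation or the strand setting. Counts in each of the 6 tables of single samples were identical to those of the series table. The 5 rows that name no gene entered neither the library sizes nor the tests. Read pairs in no gene made up 16.5% of a shCtrl and 17.4% of a shFam172a library on average, pairs with several alignments 9.64% and 10.3%, pairs of too low alignment quality 5.26% and 6.08%, ambiguous pairs 1.81% and 1.80%, and unaligned pairs 0.825% and 0.991%.

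Counts were filtered with filterByExpr (12820 of 18128 genes with any count), given TMM factors and passed to the robust quasi-likelihood fit and F test of edgeR 4.0.16 (R 4.3.3). Group was the one term. The test is two-sided, and p-values were adjusted by Benjamini-Hochberg over all genes tested. The SE is the log2 fold change over the root of F. The test was also run on simulated counts, where 13 of 12620 unchanged genes were called and 38 of 50 genes changed 1.25-fold were recovered. Most genes were unchanged in these counts (12620 of 12820), while 36.1% of genes were called in the data. Whether the same shares hold with that many genes called was not tested. Smaller changes, such as those of Hspa8 and Hsp90ab1, were not simulated. Positions come from GENCODE vM21 on GRCm38. DESeq2 1.42.0 was an alternative, with other scalings, no filter, thinned counts, length and GC offsets, a replicate block, and each library left out.

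The members and lists were chosen with earlier results of these data known. All 10 members are named. From each network class the 3 genes of smallest adjusted p are named, with Hsf2, Bag3, Stip1, Ahsa1, Chordc1 and Hspa4 whatever their values, and the 3 genes most alike to each of the 2 members of smallest adjusted p. One gene that this rule names is not reported here.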

Additional observations from a re-analysis of the deposited data

How the results depend on the processing

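The calls of Hspa8 (log2 fold change 0.12 to 0.15), Hsp90ab1 (-0.13 to -0.10) and Fam172a (-1.13 to -1.05) kept their direction and passed the test under all 13 other settings, and Hsph1 and Dnajb1 stayed uncalled with the same sign. Counts of genes called ranged from 3407 (DESeq2) to 4657. The Hsf1 value turned to -0.0010 in thinned libraries and to -0.054 with length and GC offsets, and ran from -0.0061 to 0.044 when each library in turn was left out. In the same way Hsp90aa1 ran from -0.0040 to 0.043, and Dnaja1 from -0.090 to -0.022 with adjusted p from 0.026 to 0.67. With upper-quartile scaling 8 network genes rose in place of 5. The cause of these shifts was not tested. Among 42 other named genes, 28 kept sign and side throughout. Signs turned for Stip1 (0.0019) and Hspb2 (0.013) in thinned libraries, and for Bag3 with length and GC offsets (-0.015). With single libraries left out, Bag3 ran from -0.0024 to 0.035, Hsf4 from -0.46 to 0.0089, and Hspb2 from -0.38 to 0.18. The Cox8a call was lost under 11 of 13 settings and that of Nup62 under 2.

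No pairing of libraries by replicate number was seen in correlations over genes. Deviations of same-numbered libraries from their group means correlated at -0.0054, -0.0038 and -0.0096, and no library correlated best with its own number. With the replicate block, 4468 genes were called in place of 4627, and Hspa8 (0.14, adjusted p = 1.8e-04) and Hsp90ab1 (-0.11, adjusted p = 8.5e-04) were still called. Depth limits Hspa1a, Hspa1b and Hspb1, where 3 counts in 1 library correspond to 0.129 to 0.266 CPM.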

Other observations

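Hikeshi, listed under its older symbol l7Rn6, carries HSP70 into the nucleus during heat stress, and is not among the genes counted above. It was picked after its values were seen. It stood at 31.8, 32.5 and 30.3 CPM in shCtrl and at 42.9, 41.3 and 39.4 CPM in shFam172a. All 3 shFam172a libraries were above all 3 shCtrl libraries, with a log2 fold change of 0.38 ± 0.059 (SE, edgeR adjusted p = 2.1e-06), and the call was kept under all 13 other settings (0.35 to 0.41). The change was larger than that of any of the 7 tested members, of which the largest was 0.14 (Hspa8). The median size of change was 0.13 over all genes tested and 0.22 over the genes called, so exceeding the members does not set this gene apart.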
